A study of Mus musculus with 6 samples.

Results

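The genes described here are the ligands and receptors of 4 guidance systems: ephrins with Eph receptors, semaphorins with plexins, netrins with Unc5b and neogenin, and Slits with Robo receptors. They were chosen by a fixed list of 50 gene symbols, and 49 of the 50 were measured among the 18193 genes of the array; the exception, Ephb2, was not analysed here. A gene counted as measured where a probe set (a group of array probes read as 1 value) was annotated to it alone. Where several were, the probe set with the highest mean over the 6 arrays stood for the gene. The 49 genes had 120 probe sets in all, 13 of the genes having 1 and 36 having several.

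Guidance proteins were first known for steering growing axons, and they also set how epithelial, tumour and vascular cells attach, repel each other and move. Ephrins are held at the membrane and bind Eph receptor tyrosine kinases on the neighbouring cell. Secreted class 3 semaphorins mostly bind neuropilins paired with A-type plexins, while membrane-bound semaphorins bind plexins directly; plexins then act on small GTPases. Netrins signal through the receptors DCC, neogenin and Unc5, and Slits through Robo receptors.

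The samples were 6 cultures of 393P, a mouse tumour cell line grown in culture from a primary lung tumour of a mouse carrying the alleles p53R172H∆g and K-rasLA1, both with a wild-type copy. All 6 cultures therefore share the mutant p53 and K-ras background. The control group held 3 cultures with a control vector, scrambled according to the design text, and the other group held 3 cultures with a vector expressing an shRNA against MKK4 (gene Map2k4), which phosphorylates the stress kinases JNK and p38. The labels describe delivery both as retroviral infection and as transfection, name 1 shRNA construct, and do not say whether each line was a clone or a pool, so the spread behind each p-value is that among parallel cultures of 1 line per group. The comparison asks which guidance transcripts change on MKK4 depletion.

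Map2k4 itself checks the labels. Map2k4 gave 700.3, 638 and 597 intensity units with the control vector and 240.1, 295 and 287 units with the shRNA, so that the groups did not overlap. Its log2 change was -1.21 ± 0.079 (SE) with a limma adjusted p of 0.000127, and the two-sided p of an exact permutation test was 0.1, which is the lowest possible with 3 arrays against 3. Median intensities of the arrays were 92 to 95.76 units, and arrays correlated at r = 0.991 to 0.996 across genes. Background was taken from the trpnX probe sets, array controls for a bacterial transcript, whose brightest value on each array lay between 26.5 and 39.5 units. A level near or under that says little about a gene. Of the 49 guidance genes 38 lay above the trpnX controls on all 6 arrays.

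The epithelial markers Krt8, Krt18, Epcam and Cdh1 had means of 5514 to 14322 units in the 2 groups, and so the cultures carried them. Of 12 epithelial markers Epcam, Cdh1 and Cldn7 fell and Krt19 rose with the shRNA. Each marker count here is to be read beside the 11.8% of all genes that limma called in either direction. Among genes above the trpnX controls on all 6 arrays that share was 15.5%. The lung lineage markers Nkx2-1 and Scgb1a1 averaged no more than 11.2 units in either group and were not above the trpnX controls, whereas the surfactant protein genes Sftpb (266 units in both groups) and Sftpc (75.8 and 61.9 units) were above them on all 6 arrays. Of 24 measured markers of fibroblasts, endothelium and leukocytes 0 were called by limma and 1 had an unadjusted p under 0.05, beside 24.1% of all genes. Their summed intensities overlapped between the groups, for example 1136 to 1238 units over the leukocyte markers in control cultures and 1064 to 1256 units in shRNA cultures. Pecam1, Vwf, Tie1, Cd3e, Lyz2 and Pdgfrb had means under 29 units in both groups, but 11 of the 24 markers were above the trpnX controls on all 6 arrays, among them Csf1r (771 units in controls and 725 with the shRNA) and Kdr (394 and 345). Of 10 neuronal and glial markers Map2 rose by 0.66 and Mbp fell by 0.18 on the log2 scale, and the list's sum ran from 2837 to 2890 units in controls and 2721 to 2742 units with the shRNA; the part of these genes in the results below was not tested.

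Across the guidance genes, 3 rose and 3 fell with MKK4 shRNA, and 43 did not pass the test. Sema3e, Plxnd1 and Ntn4 rose, and Sema7a, Sema3b and Plxnb1 fell, at a limma adjusted p under 0.05 over all 18193 genes. The 6 of 49 are 12.2% of the family members measured, beside 11.8% of all genes tested (6.37% higher and 5.39% lower), so the list as a whole was called about as often as genes at large. The median log2 change was -0.01 over the 49 genes and -0.01 over all genes. Among the 38 members above the trpnX controls on every array 5 were called, or 13.2%, beside 15.5% of all genes that met the same condition. The groups did not overlap in 11 of the 49 genes, or 22.4%, beside 26.0% of all genes.

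**Figure D1:**
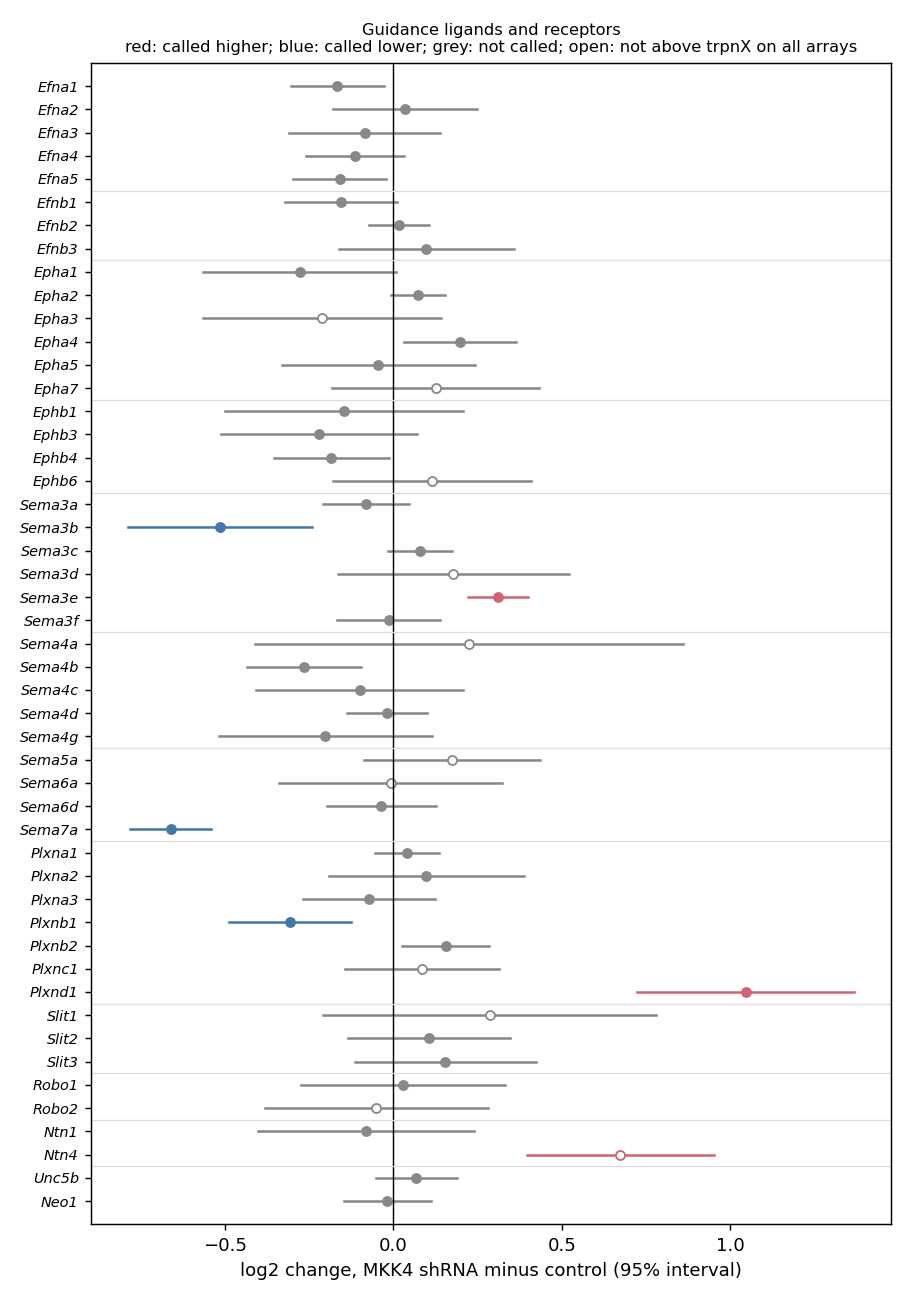
Log2 change of each of the 49 guidance genes, MKK4 shRNA minus control, with its 95% interval (horizontal axis), ordered by family from ephrin-A ligands at the top to netrin receptors at the bottom. Red marks the 3 genes called higher, blue the 3 called lower and grey the 43 not called; open circles are genes not above the trpnX controls on all arrays, such as Ntn4.

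Sema3e and Plxnd1 encode a ligand and the plexin it binds directly, without needing a neuropilin, and both rose. Sema3e gave 1574, 1454 and 1419 units with the control vector and 1769, 1868 and 1921 units with the shRNA. Every shRNA culture lay above every control culture. The mean went from 1483 ± 81.5 to 1853 ± 77.0 units (SD, n = 3), a 1.24-fold rise with a log2 change of 0.31 ± 0.038 (SE) and a limma adjusted p of 0.00198. Log2 changes from the 3 remaining Sema3e probe sets were 0.44, 0.31 and 0.12, of which the first pair passed when every probe set was tested on its own (limma adjusted p = 0.00429 and 0.0243), and the last did not (0.293).

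Plxnd1, whose product is a receptor best known from blood vessel patterning, gave 39.4, 53.6 and 52.0 units in control cultures. The shRNA cultures gave 100.1, 119 and 132 units, so the groups did not overlap and the lowest shRNA value was well above the highest control value. Group means were 48.3 ± 7.78 and 117 ± 16.2 units (SD, n = 3), and the log2 change was 1.05 ± 0.14 (SE) with a limma adjusted p of 0.00287. This is the largest log2 change among the 49 genes. The control values lie close to the trpnX controls, so the 2.06-fold size is uncertain: the log2 change was 1.26 with a pseudocount of 1 and 0.68 with 64. Plxnd1 has 1 probe set, so no second measurement of it exists on this array.

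**Figure D2:**
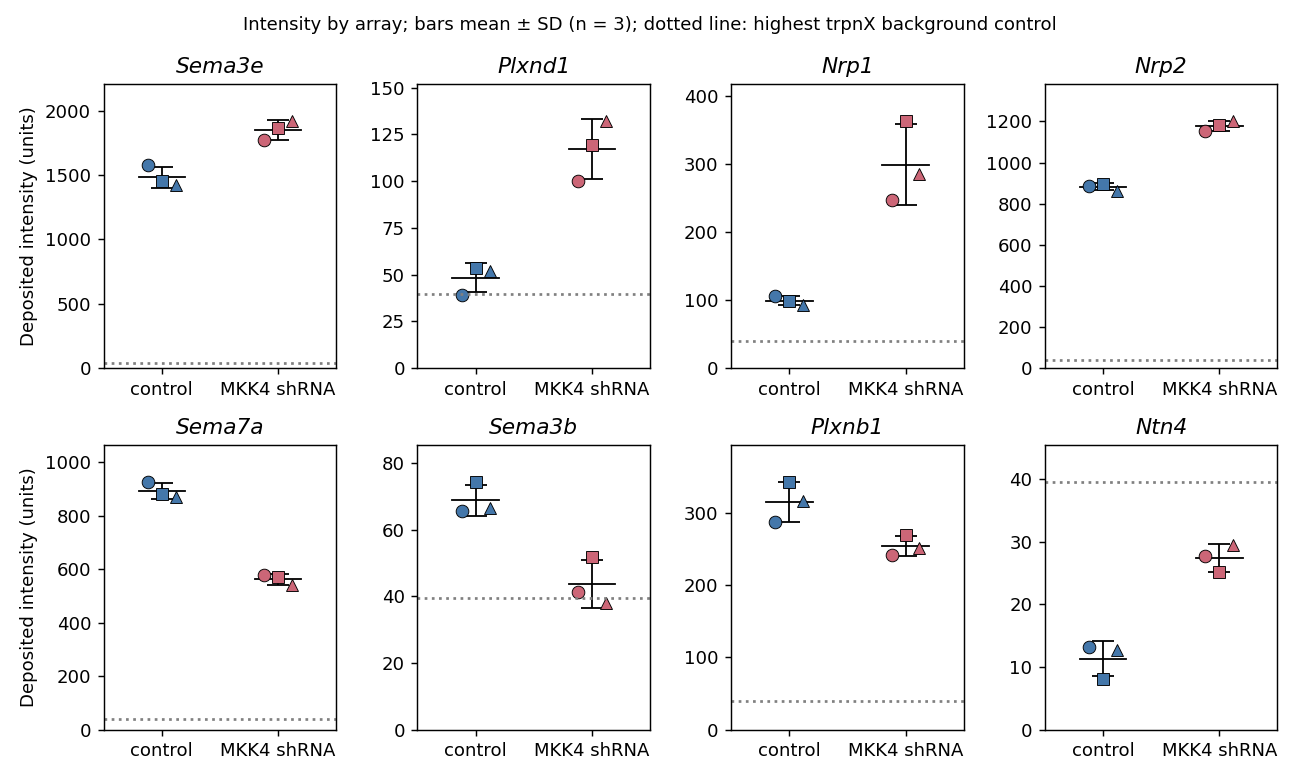
Deposited intensity (vertical axis, units, starting at 0) in each of the 3 control and 3 MKK4 shRNA cultures for the 6 called guidance genes and the neuropilin genes Nrp1 and Nrp2, with mean ± SD and the highest trpnX control as a dotted line at 39.5 units. The groups do not overlap in any of the 8 genes, and the Ntn4 values of 8.06 to 29.5 units all lie under the dotted line. Control replicate 1 of Plxnd1 (39.37 units) and shRNA replicate 3 of Sema3b (38.03 units) also lie just under it. Both are above the trpnX controls of their own arrays (36.72 and 37.95 units).

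The neuropilin genes, which encode co-receptors of class 3 semaphorins and are not in the list of 49, rose as well. Nrp2 gave 888, 896 and 862 units in control cultures and 1153, 1181 and 1203 units in shRNA cultures, without overlap. Its log2 change was 0.40 ± 0.038 (SE) with a limma adjusted p of 0.000669, and its 3 other probe sets gave 0.26, 0.33 and 0.25. Nrp1 gave 106, 99.2 and 93.2 units in controls and 247, 363 and 286 units with the shRNA, again without overlap, a log2 change of 1.42 ± 0.12 (SE) with a limma adjusted p of 0.00047. The size of the Nrp1 rise rests on that probe set: the 3 others, with control means of 81.9 to 107 units, gave 0.25, 0.35 and 0.07, and the mean of all 4 gave 0.52 (limma adjusted p = 0.00751).

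Of the remaining class 3 semaphorin genes Sema3b alone passed the test, and it fell. Sema3b, a gene known as a tumour suppressor in lung cancer, gave 65.6, 74.3 and 66.6 units in controls and 41.3, 51.9 and 38.0 units with the shRNA. All shRNA cultures were lower, and their level lay near the trpnX controls. The log2 change was -0.52 ± 0.12 (SE) with a limma adjusted p of 0.0282. The other Sema3b probe sets exceeded the trpnX controls on 0 of the 6 arrays and gave 0.03 and -0.33. When every probe set was tested on its own, the kept one did not pass (limma adjusted p = 0.0518). The call was lost with the probe sets averaged (-0.27, adjusted p = 0.293) and with the replicate block (0.0533). It was also lost when 1 array was left out, namely control replicate 1 (0.0737), control replicate 2 (0.101), control replicate 3 (0.0789), shRNA replicate 1 (0.0775) or shRNA replicate 3 (0.0926).

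Sema3f encodes another semaphorin that binds neuropilin-2, and its probe sets disagreed. The brightest, which can match several transcripts, gave 1842, 1891 and 1861 units in controls and 1954, 1718 and 1937 units with the shRNA, a log2 change of -0.01 with a 95% interval of -0.17 to 0.14. A dimmer one, which was likewise counted as a multi-match probe set, fell from 304, 348 and 345 units to 257, 262 and 257 units. Its log2 change of -0.36 passed on its own (limma adjusted p = 0.0265 over all probe sets). The remaining one gave -0.46 (adjusted p = 0.0628), and it too had every shRNA culture under every control culture. Sema3f as a gene was called lower with its probe sets averaged (-0.28, limma adjusted p = 0.0308) and when the multi-match probe sets were left out (-0.46, 0.0448). Sema3a and Sema3c, also neuropilin ligands, gave -0.08 (95% interval -0.21 to 0.05) and 0.08 (-0.02 to 0.17). Their other probe sets gave -0.12 and 0.18 for Sema3a and -0.05 for Sema3c, and none passed on its own. Sema3d gave 0.18 (limma adjusted p = 0.55) and was not above the trpnX controls on all arrays.

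Sema7a fell. It encodes a membrane-anchored semaphorin that binds plexin C1 and integrins. The control cultures gave 926, 884 and 871 units and the shRNA cultures 579, 571 and 539.9 units, so that each shRNA value was under every control value. The mean went from 894 ± 28.8 to 563 ± 20.8 units (SD, n = 3), a 1.58-fold fall with a log2 change of -0.66 ± 0.052 (SE) with limma's adjusted p at 0.000307. The dimmer Sema7a probe set gave 65.4, 81.8 and 78.6 units in controls and 31.8, 63.6 and 54.4 units with the shRNA, a log2 change of -0.50, and did not pass on its own (adjusted p = 0.233). The gene of its receptor, Plxnc1, gave 28.3 to 30.5 units in controls and 31.0 to 33.4 units with the shRNA, under or about the trpnX level, with a log2 change of 0.08 and an adjusted p of 0.686.

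Promoter sequence is shown for Sema3e, Plxnd1 and Sema7a, the members above the trpnX controls whose calls held in each setting in which they were tested. Each run is the 250 bases before the RefSeq start of the gene on build GRCm38.p6, read 5′ to 3′ on the gene's own strand, with the GC box (GGGCGG, both strands) in capitals. Sema3e lies at chr5:14025026-14025275 on the plus strand, Plxnd1 at chr6:115995006-115995255 on the minus strand and Sema7a at chr9:57939862-57940111 on the plus strand.
Sema3e: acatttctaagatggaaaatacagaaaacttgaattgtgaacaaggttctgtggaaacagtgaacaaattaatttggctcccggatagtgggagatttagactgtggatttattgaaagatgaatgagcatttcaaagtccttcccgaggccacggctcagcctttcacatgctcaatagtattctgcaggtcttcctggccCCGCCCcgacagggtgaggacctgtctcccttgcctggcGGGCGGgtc
Plxnd1: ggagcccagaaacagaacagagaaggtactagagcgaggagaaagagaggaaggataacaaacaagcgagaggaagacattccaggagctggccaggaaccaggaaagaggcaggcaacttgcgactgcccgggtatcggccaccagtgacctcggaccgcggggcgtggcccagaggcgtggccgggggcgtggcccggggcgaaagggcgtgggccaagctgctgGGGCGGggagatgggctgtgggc
Sema7a: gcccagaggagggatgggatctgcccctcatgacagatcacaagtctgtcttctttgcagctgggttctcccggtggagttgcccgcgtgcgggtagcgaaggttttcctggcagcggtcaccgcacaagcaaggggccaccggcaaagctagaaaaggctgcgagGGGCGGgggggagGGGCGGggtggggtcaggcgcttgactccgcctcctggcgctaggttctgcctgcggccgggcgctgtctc

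The Sema3e window had 48% G or C with 2 GC boxes, that of Plxnd1 64.8% with 1, and that of Sema7a 66.4% with 2. A GC box stood in 42 of the 56 windows of the 42 matched members, or 75%, beside 32.7% of all 32851 windows of this length, and the median G and C content was 64.4% over the member windows and 52.4% over all. The sites of AP-1 (TGACTCA), the transcription factor that JNK acts on through Jun, of the cAMP response element (TGACGTCA) and of the E-box (CACGTG) were searched on both strands too. None of these 3 was in any of the printed windows. The AP-1 letters stood in 1 of 56 member windows, that of Sema4c, against 4.46% of all windows; the cAMP response element in 1, that of Epha2, against 1.55%; and the E-box in 3 (Robo2, Sema4b and Sema6d) against 6.02%. A match is only a run of letters in this window.

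Among class 4 semaphorins and the B-type plexins that receive them, Plxnb1 fell. Plxnb1 encodes the receptor of semaphorin 4D and gave 287, 342 and 316 units in controls and 242, 270 and 251 units with the shRNA. The groups did not overlap, but the lowest control and the highest shRNA value were close. The log2 change was -0.31 ± 0.078 (SE) with a limma adjusted p of 0.0409, and the other probe set, at 246 units in controls, gave -0.06 (adjusted p = 0.841). The call was lost as deposited (0.0738), with centred medians (0.0623), with no trend in the prior variance (0.0756), with the replicate block (0.0694), after chromosome centring (0.0544) and with the probe sets averaged (0.139). Leaving out control replicate 2 (0.133), control replicate 3 (0.128), or any of shRNA replicates 1 (0.101), 2 (0.1) and 3 (0.121) ended it too.

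Sema4d, its ligand, gave 764 ± 36.1 and 763 ± 33.8 units (SD, n = 3), and its log2 change was -0.02 with a 95% interval of -0.14 to 0.10. Sema4b gave 547, 498 and 570.5 units in controls and 432, 503 and 418 units with the shRNA, and 1 shRNA culture lay within the control range. Its log2 change was -0.27 ± 0.073 (SE), the nearest to the threshold of the genes that did not pass (limma adjusted p = 0.0552), and its other probe set gave -0.26. It passed in 2 of 16 alternative settings, without the dimmer genes (0.0132) and with probe sets averaged (0.0443). Plxnb2, a receptor of class 4 semaphorins, gave 1309, 1505.5 and 1407 units in controls and 1506.2, 1602 and 1615 units with the shRNA, a log2 change of 0.16 (adjusted p = 0.129) whose groups all but touched. Among the other class 4 to 7 genes, Sema4g gave -0.20 (adjusted p = 0.445), and Sema4a and Sema5a exceeded the trpnX controls on 0 of the 6 arrays. The A-type plexin genes Plxna1, Plxna2 and Plxna3 gave 0.04, 0.10 and -0.07, with adjusted p of 0.628 to 0.716.

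**Figure D3:**
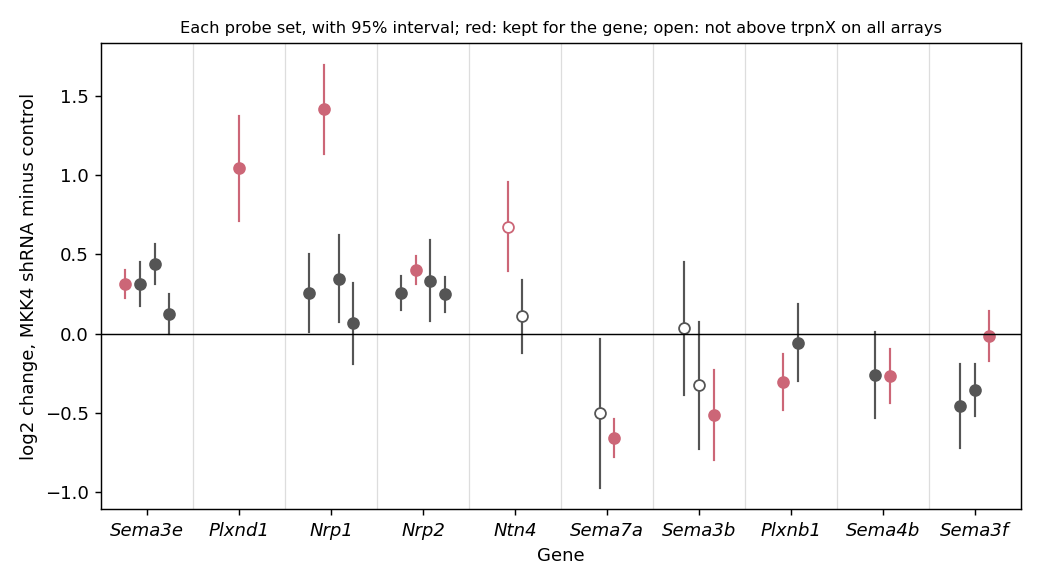
Log2 change with 95% interval (vertical axis) of every probe set of the 6 called guidance genes, of Nrp1 and Nrp2, and of Sema4b and Sema3f; red marks the probe set kept for the gene and open circles those not above the trpnX controls on all arrays. The 4 Sema3e probe sets all lie above 0 (0.12 to 0.44), while those of Nrp1 run from 0.07 to 1.42 and those of Sema3f from -0.46 to -0.01.

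Of the 18 measured ephrin and Eph receptor genes 0 were called by limma, beside 11.8% of all genes, and 4 had an unadjusted p under 0.05, beside 24.1% of all genes. These were the ephrin genes Efna1 (log2 change -0.17, adjusted p = 0.126) and Efna5 (-0.16, 0.14) and the receptor genes Ephb4 (-0.18, 0.174) and Epha4 (0.20, 0.133). Ephb4, which encodes the receptor of ephrin-B2, gave 426, 461 and 439 units in controls and 414, 402 and 358 units with the shRNA, without overlap. Its ligand gene Efnb2 gave 2778, 2980 and 2787 units in controls and 2862, 2980 and 2888 units with the shRNA, a log2 change of 0.02 with a 95% interval of -0.07 to 0.10. Other Efnb2 probe sets gave -0.01, 0.13 and -0.35, and none of them passed on its own (limma adjusted p = 0.167 to 0.91 over all probe sets). Epha2, a receptor gene often active in epithelial tumours, gave 4910, 5113 and 4809 units in controls and 5250, 5174 and 5454 units with the shRNA. The Epha2 groups did not overlap, yet the log2 change was only 0.07, with a 95% interval of -0.01 to 0.15 and a limma adjusted p of 0.248.

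Over the 18 genes, log2 changes ran from -0.28 for Epha1 to 0.20 for Epha4, with 7 positive and 11 negative and a median of -0.10. Efna1 gave 384, 363 and 352 units in controls and 308, 358 and 321 units with the shRNA, and Efna5 gave 904, 864 and 793 units and 681, 841 and 797 units, so in both genes 1 or more shRNA cultures lay within the control range. Efnb1, an ephrin-B gene, gave 1008, 898 and 942 units in controls and 912, 839.8 and 813 units with the shRNA, a log2 change of -0.16 (adjusted p = 0.243) that passed only without shRNA replicate 1 (0.032). Efna3, Epha5 and Ephb3 gave -0.09, -0.05 and -0.22 with overlapping groups. Epha3, Epha7 and Ephb6 were not above the trpnX controls on all arrays. A dim Epha7 probe set that was not kept passed on its own (log2 change 0.52, limma adjusted p = 0.0413), from 12.3 to 24.2 units, both under the trpnX level. In bulk RNA, fewer cells with a transcript and less of it per cell cannot be told apart for any of these genes.

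Of the 9 genes of netrins, Slits and their receptors Ntn4 alone passed the test, beside 11.8% of all genes. Ntn4 encodes netrin-4, a laminin-like protein of basement membranes, and gave 13.2, 8.06 and 12.8 units in controls and 27.7, 25.1 and 29.5 units with the shRNA. The groups did not overlap, but no array exceeded the trpnX controls, so no fold is given. The log2 change on the scale with a pseudocount of 16 was 0.67 ± 0.12 (SE) with a limma adjusted p of 0.00963, and it was 1.24 with a pseudocount of 1 and 0.28 with 64. Its other probe set was dimmer still, at most 4.41 units, and gave 0.11.

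The netrin receptor genes Unc5b and Neo1 were well above background and showed narrow intervals on their kept probe sets. Unc5b, a receptor of repulsion and cell death control, gave 1740, 1807 and 1671 units in controls and 1898, 1833 and 1761 units with the shRNA, with overlap and a 95% interval of -0.05 to 0.19 for the log2 change. The other Unc5b probe set gave 1301, 1218 and 1252 units in controls and 1433, 1493 and 1380 units with the shRNA, without overlap. Its log2 change was 0.17, and it did not pass on its own (limma adjusted p = 0.0631 over all probe sets). Neo1, the gene of neogenin, gave 789 ± 60.1 and 789.8 ± 52.4 units (SD, n = 3) and an interval of -0.15 to 0.11. Slit2, a ligand of Robo receptors, gave 337, 263 and 307 units in controls and 357, 336 and 293 units with the shRNA, a log2 change of 0.11 (adjusted p = 0.622). Slit1 and Robo2 lay near or under the trpnX level, and Slit3, Robo1 and Ntn1 gave 0.15, 0.03 and -0.08 at levels of 58.2 to 87.0 units. Over all families, 12 of the 43 genes that did not pass had the whole 95% interval within a 1.2-fold change either way. They were Efna2, Efna4, Efnb2, Epha2, Sema3a, Sema3c, Sema3f, Sema4d, Sema6d, Plxna1, Unc5b and Neo1. These intervals are those of the kept probe sets. Intervals of other probe sets of Sema3f, Unc5b, Efnb2, Sema4d, Plxna1 and Neo1, among others, reached past that size.

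Position was not part of the choice of genes. The 3 members that fell, Sema7a, Sema3b and Plxnb1, all lie on chromosome 9, as do Sema3f, Neo1 and Ephb1, which did not pass on their kept probe sets. Chromosome 9 held 1002 of the 18193 genes tested, with a median log2 change of -0.01, and its share of called genes was not counted. Of these 3 falls only that of Sema7a passed in every alternative setting. Those of Sema3b and Plxnb1 passed in 7 of 14 and 5 of 16. Whether position plays a part was not tested. Of the members that rose, Sema3e lies on chromosome 5, Plxnd1 on chromosome 6 and Ntn4 on chromosome 10, with chromosome medians between -0.03 and 0.00.

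Around the 49 genes, lists of co-receptors and effectors were counted in the same fit. Of 120 measured genes 10 rose and 10 fell, or 16.7%, beside 11.8% of all genes and 15.5% of genes above the trpnX controls on every array, where 104 of these 120 lay. Their median log2 change was -0.03, and the counts of single lists below are to be read against the same shares. Among 33 co-receptor and other guidance family genes 3 rose and 3 fell. Beside Nrp1 and Nrp2, the adhesion molecule genes L1cam, whose product pairs with neuropilin-1, and Dscam, which encodes a netrin receptor, fell by 0.33 (limma adjusted p = 0.0116) and 0.31 (0.0454) on the log2 scale. The call of L1cam was lost with probe sets averaged and without control replicate 3, and that of Dscam in 11 of 16 alternative settings, every one with an array left out among them. Dcc, the gene of the classical netrin receptor, was under the trpnX level, and Met, a kinase gene whose product associates with plexin B1, gave -0.09 (adjusted p = 0.18).

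Effectors changed in both directions, by small amounts. Of 26 Eph effectors 2 rose and 2 fell: Ngef, the gene of ephexin, which acts below EphA receptors, fell from 697 ± 23.9 to 495 ± 55.1 units (SD, n = 3, log2 change -0.51, limma adjusted p = 0.00204), and Vav3, an exchange factor gene, fell by 0.31, passing in 7 of 15 settings. Chn2, a Rac-inactivating protein gene, rose by 0.42, passing in 11 of 15 settings, and Tiam1, a Rac activator gene, rose by 0.35 with an adjusted p of 0.0498 that passed in 2 of 15 settings. Of 26 semaphorin and plexin effectors Rnd1 (0.41), a small GTPase gene acting on plexins that passed in 8 of 16 settings, and Dpysl2 (0.27), the gene of the collapsin response mediator CRMP2, rose. Farp1, an exchange factor gene, fell from 892 ± 25.7 to 719 ± 46.2 units (SD, n = 3, log2 change -0.32, limma adjusted p = 0.00366), but gave -0.04 with its probe sets averaged (0.847). Dpysl2 was not called either with its probe sets averaged (0.15, adjusted p = 0.0977).

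Of 17 Slit, Robo and netrin effectors 3 rose and 0 fell by limma, the count of falls at an unadjusted p under 0.05 also being 0. These were the actin regulators Vasp (0.17) and Enah (0.14) and the exchange factor gene Trio (0.16), with folds of 1.12, 1.10 and 1.12 in that order, and they passed in 9, 6 and 10 of 16 settings. Of 18 small GTPase and actin genes 4 fell and 0 rose by limma, with 2 higher and 5 lower at an unadjusted p under 0.05. Rhob fell by 0.57, Ssh1, a cofilin phosphatase gene, by 0.37 (from 1010.1 ± 35.3 to 784 ± 46.5 units, SD, n = 3), Limk2, a kinase gene of cofilin, by 0.25, and Pak2 by 0.20. The Limk2 change turned to 0.14 when probe sets open to several transcripts were left out (adjusted p = 0.716), and the call of Ssh1 was lost there (0.0719). With probe sets averaged both calls were lost (0.433 and 0.169), and Pak2 passed in 8 of 16 settings.

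**Figure D4:**
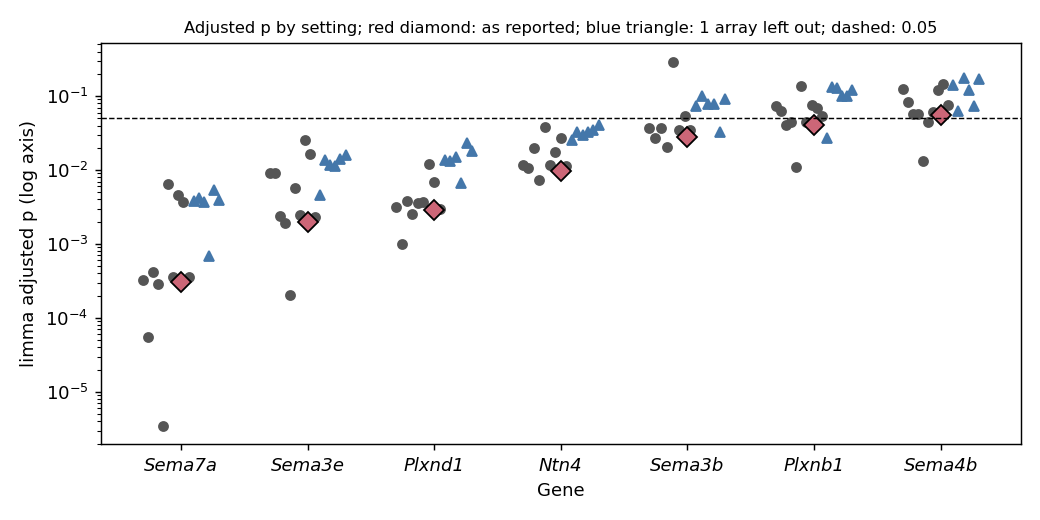
Limma adjusted p (vertical log axis) of the 6 called guidance genes and of Sema4b as reported (red diamond), with 1 array left out (blue triangles) and under the other alternatives (grey circles); the dashed line is 0.05. Sema7a and Sema3e stay under the line in all 16 alternatives and Plxnd1 and Ntn4 in the 15 that kept them, while Sema3b and Plxnb1 cross it.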

How the data were processed

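Per the labels' protocols, biotinylated cRNA of 6 cultures was read on Affymetrix arrays, which have 1 colour. The deposited values are probe set intensities on a linear scale; how the authors summarised, background-corrected and normalized them is not given in the sources used here. A pseudocount of 16 was added, log2 was taken, and quantile normalization was applied (limma 3.58.1, run in R 4.3.3). The 64 control probe sets were not tested. Of the others, 34945 carry a single gene in the platform annotation, 932 carry several and for 9160 none is listed. Fold changes are on the log2(intensity + 16) scale, which understates changes of dim genes; intensities, means and SDs are as deposited, and overlap of groups was judged on them.

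The comparison used limma's lmFit and trended eBayes with Benjamini-Hochberg adjustment at 0.05 over all 18193 genes, group being the single term; the test was tested on simulated data. The number of arrays limits the precision. Alternatives were values as deposited, centred medians, pseudocounts of 1 and 64, no dimmer genes, probe sets averaged, no multi-match probe sets, no trend, a replicate block and each array left out. Named were Map2k4, each guidance gene that passed or stood near the threshold, partners of called genes, and up to 4 called genes of each pathway list. The members and lists were chosen with earlier results of these data known. The GC box, chromosome centring and the test of every probe set were chosen after seeing the data. Lyn, Arhgef28, Ptk2, Rock2 and Pak1 were not analysed here. Sequences are from RefSeq, build GRCm38.p6; 42 of the 49 members were matched.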

Additional observations from a re-analysis of the deposited data

How the results depend on the processing

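The count of guidance genes that rose was 3 in each of the 17 alternatives, but without the dimmer genes, where 26 members were tested, the genes were Epha4, Sema3e and Plxnb2. The count that fell, 3, was 1 with the replicate block and when p-values were adjusted over every probe set, and 1 to 2 with 1 array left out: 1 without control replicate 2 or 3 or shRNA replicate 3. It was 2 as deposited, with centred medians, with no trend and after chromosome centring. Where it stayed at 3 the genes could differ from Sema3b, Sema7a and Plxnb1: they were Sema3f, Sema4b and Sema7a with probe sets averaged, Sema4b, Sema7a and Plxnb1 without the dimmer genes, and Sema3f, Sema7a and Plxnb1 without multi-match probe sets. Sema3b was not among the genes tested without the dimmer genes, nor among the 45 members tested without multi-match probe sets. Sema3e and Sema7a passed in all 16 settings of the gene test, with adjusted p of at most 0.0254 and 0.00655. Over all genes, 1158 higher became 654 with no trend and 686 with the replicate block, and 641 to 912 with 1 array left out. The 981 lower became 565 as deposited, 561 with centred medians, 473 with no trend, 520 with the replicate block and 518 to 750 with 1 array left out. Of the pathway list genes, 10 higher became 6 with centred medians and with chromosome centring, 5 with no trend and with the replicate block, and 5 to 7 with 1 array left out. The 10 lower became 6 with centred medians and with the replicate block, 4 with probe sets averaged, and 5 to 9 with 1 array left out. Limk2 turned from -0.25 to 0.14 when probe sets open to several transcripts were left out. The cause of these shifts was not tested. By design, the fits without an array hold fewer samples. The replicate block adds terms to the fit, so less information is left for estimating the spread. Its log2 changes are those of the main fit, for example -0.52 for Sema3b. Over the 29 named genes other than Map2k4, 347 values stayed on the same side of the threshold, 101 lost the call and 7 gained it; among the 347, Sema3f, not called, turned from -0.01 to 0.00 as deposited, 0.01 without control replicate 2 and 0.06 without shRNA replicate 2. Arrays of the same letter deviated from their group means with correlations of -0.03, -0.01 and -0.11, and arrays of unlike letters with -0.09 to 0.13. No pairing by letter was seen, but 3 arrays per group cannot exclude it. The replicate block left Map2k4 and 4 of the 6 guidance calls in place (Sema3e, Plxnd1, Ntn4 and Sema7a), while Sema3b (0.0533) and Plxnb1 (0.0694) no longer passed. Nor did L1cam (0.0533), Dscam, Tiam1, Vav3, Rnd1, Vasp, Trio, Enah and Pak2 of the pathway lists (0.0551 to 0.126). Genes within the trpnX level, 11 of the 49 on at least 1 array, are limited by signal over background.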
